A study of Mus musculus with 8 samples.

Results

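The 8 genes described here mark steps in the birth of neurons or the division of cells, and were followed in the hippocampus of Tg6799 mice. They are Dcx, Sox11, Neurod1 and Calb2 (immature neuron genes), Eomes and Sox2 (progenitor genes), and Mki67 and Top2a (proliferation genes). They are 8 of the 18193 genes with a representative probe set, and were chosen by name with earlier results of these data known. On the Affymetrix mouse array used, 20 probe sets were annotated to 1 of these symbols alone, and each gene was represented by its brightest probe set on average. The others are given beside it.

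The arrays measured total RNA of the hippocampus of female mice in 4 groups of 2 arrays each. MT8m and MT4m were mutant Tg6799 mice at 8 and 4 months of age. LM8m and LM4m were littermates of the same colony at the same ages, and their labels also give Tg6799 as the strain. The Tg6799 line carries mutant human APP and presenilin 1 transgenes under the neuronal Thy1 promoter, so the transgenes act from neurons. Neither the labels nor the methods say whether an array held RNA of 1 mouse or of a pool, so p-values measure only the spread between these arrays, which may be technical. Nor is it stated whether the 8-month and 4-month arrays were processed together, so age and processing cannot be told apart.

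In the adult rodent hippocampus, neurons are still born in the subgranular zone of the dentate gyrus. Radial glia-like stem cells that express Sox2 give rise to dividing intermediate progenitors that express Eomes (Tbr2). These become neuroblasts and immature neurons that express Neurod1, Sox11 and Dcx, and briefly Calb2 (calretinin), before they mature into granule cells. Mki67 and Top2a are transcribed in any dividing cell, microglia and oligodendrocyte precursors included. Sox2 is also abundant in astrocytes, and Calb2 is also made by a class of interneurons, by hilar mossy cells and by thalamic neurons.

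The labels were checked with Thy1, because the Thy1 probe set reads high where the transgene is present. Thy1 was at 9.90 and 11.79 in MT8m against 9.92 and 9.53 in LM8m, and at 11.73 and 11.82 in MT4m against 9.96 and 9.76 in LM4m (log2 values). The library labelled MT8m replicate 1 thus had a littermate-like Thy1 value, and its Cst7 (1.75, against 8.03 in MT8m replicate 2) and Gfap (7.17, against 9.80) were also at littermate levels. Its choroid plexus gene Ttr, at 10.69, lay with the other MT arrays (10.66 to 10.97) and below all LM arrays (12.43 to 12.83). The labels were kept, and several differences below are also given without this library. The gene tables published with the study hold the same arrays under the opposite genotype names at both ages, so every genotype direction below, which follows the sample labels, is the reverse of those tables. The tissue was rich in hippocampal transcripts, with the means of all 8 dentate granule cell markers between 2.76 and 8.70 and those of all 6 Ammon's horn markers between 4.97 and 6.89, above the median of all probe sets (2.475).

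The 8 genes differed widely in signal. Sox2 (mean 6.97 over the 8 arrays), Neurod1 (6.51), Calb2 (5.88) and Sox11 (5.80) were each brighter than over 83% of all probe sets. Dcx was lower, at 3.30, brighter than 61.7% of probe sets. Eomes (2.26), Top2a (2.19) and Mki67 (1.81) were dim, and levels of different probe sets are not amounts of RNA. In these female mice the 3 measured Y-linked genes, which have no transcript there, gave values of 1.30 to 1.99. Every Mki67 value (1.48 to 2.06) lay in or within 0.07 of that range. The RMA values used here hold no detection calls, so presence or absence was not called for any gene.

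Promoter sequence was read for 7 of the 8 genes from RefSeq (GRCm38.p6), as the 250 bases before the transcript start. The stretches below are those of Top2a, Mki67, Sox11 and Dcx, each cut to the bases outside the annotated gene. Capitals mark the CCAAT box (CCAAT, or ATTGG on the other strand) and the cell cycle homology region (TTTGAA, or TTCAAA), which are elements known from promoters of cell cycle genes. No marked letters overlap. Top2a (chr11:99024200-99024439, minus strand) and Mki67 (chr7:135716451-135716629, minus strand) are the proliferation genes, and Sox11 (chr12:27342719-27342968, minus strand) and Dcx (chrX:143933397-143933469, minus strand) are immature neuron genes.
Top2a: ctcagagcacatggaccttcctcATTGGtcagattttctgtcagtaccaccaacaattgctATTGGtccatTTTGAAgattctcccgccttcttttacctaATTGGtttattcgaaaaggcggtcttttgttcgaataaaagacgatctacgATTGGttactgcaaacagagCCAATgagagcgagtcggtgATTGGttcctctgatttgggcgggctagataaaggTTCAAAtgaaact
Mki67: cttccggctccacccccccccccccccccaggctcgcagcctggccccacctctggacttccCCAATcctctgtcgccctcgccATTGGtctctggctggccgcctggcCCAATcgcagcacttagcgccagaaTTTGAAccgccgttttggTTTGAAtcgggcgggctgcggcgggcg
Sox11: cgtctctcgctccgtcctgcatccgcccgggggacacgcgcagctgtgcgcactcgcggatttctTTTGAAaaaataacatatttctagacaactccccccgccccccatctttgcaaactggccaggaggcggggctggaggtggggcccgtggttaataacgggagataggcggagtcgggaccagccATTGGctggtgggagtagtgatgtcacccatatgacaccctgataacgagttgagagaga
Dcx: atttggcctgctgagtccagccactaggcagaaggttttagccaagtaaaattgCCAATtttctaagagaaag
The Top2a promoter held 6 CCAAT boxes and 2 TTTGAA motifs, and the Mki67 promoter held 3 and 2. The Sox11 promoter held 1 of each, and the upstream of the Dcx starts held 1 CCAAT box alone. The promoters of Eomes and Sox2, not printed, held 2 and 1 CCAAT boxes, so 6 of the 7 genes had at least 1. Of 32851 promoters of the same length, 33.8% held at least 1 CCAAT box, 2.79% at least 3 and 0.0578% at least 6, while 16.0% held at least 1 TTTGAA and 1.81% at least 2. The NeuroD E-box CAGATG (14.4% of promoters) was in none of the 7 promoters, and the SOX motif ACAAAG (16.5%) was in those of Sox2 and of a second Dcx start, searched on both strands in each case. These matches describe letters in a window and not sites in use.

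No gene of the 8 passed the test in any comparison. The test was limma on all 45037 probe sets, with Benjamini-Hochberg adjustment and a threshold of 0.05. The count was 0 of 8 for MT against LM at 8 months, at 4 months and averaged over ages, where 0.02%, 0% and 0.06% of all probe sets passed. It was 0 of 8 for 8 against 4 months in MT, in LM and averaged over genotypes, where 0%, 0% and 0% of all probe sets passed. It was also 0 of 8 for the interaction of genotype and age (0% of all) and for the F test over the 4 groups (0.0133% of all). At an unadjusted p under 0.05 the counts by age were 4 of 8 averaged over genotypes (6.47% of all genes), 3 in MT (5.78%) and 2 in LM (3.48%). By genotype they were 1 at 8 months (3.54%), 3 at 4 months (5.74%) and 2 averaged over ages (6.72%), and the interaction had 0 (2.58%). The values below are therefore descriptions of size and order with their intervals, and not calls.

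**Figure D1:**
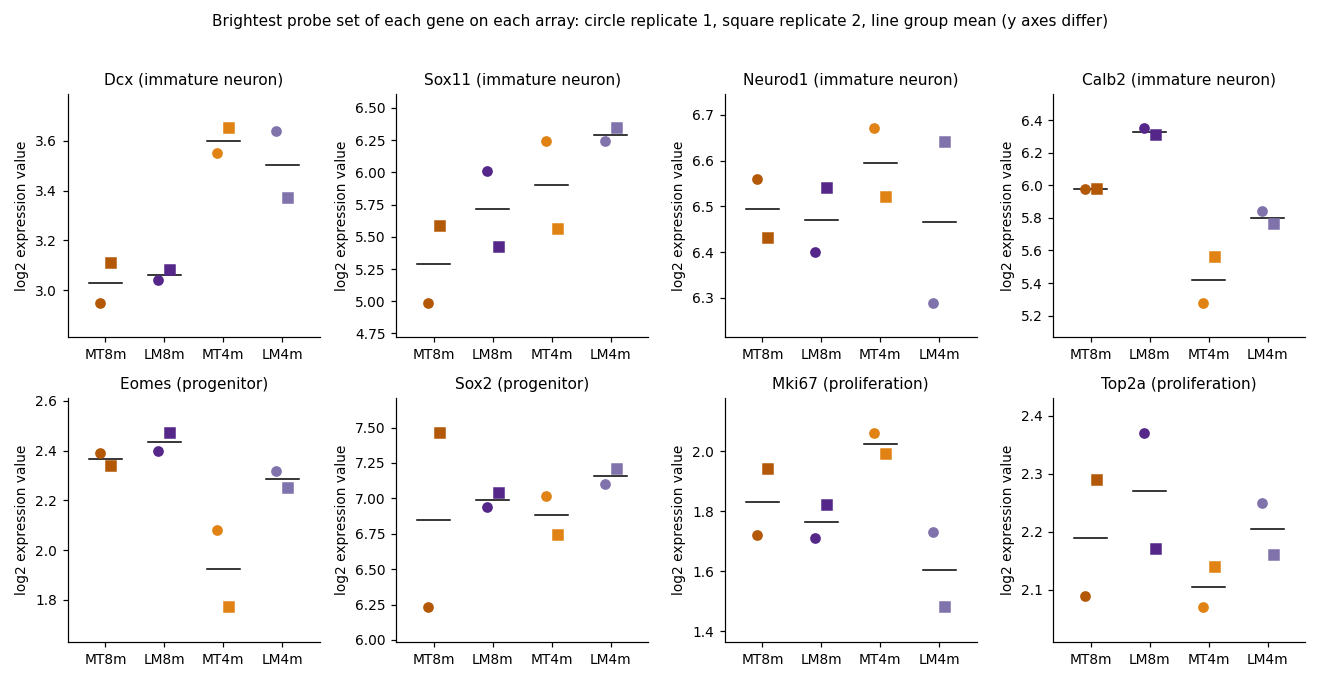
Log2 expression value (y axis, a separate range for each gene) of the 8 genes, each by its brightest probe set, with the arrays sorted by group (x axis). Circles are replicate 1, squares replicate 2 and lines the mean of 2 arrays. Dcx lies lower on all 8-month arrays (2.95 to 3.11) than on all 4-month arrays (3.37 to 3.65), Calb2 lies higher at 8 months, and the MT8m arrays of Sox2 are 1.23 apart.

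Dcx, the microtubule-associated doublecortin of migrating neuroblasts, lay lower at 8 months in both genotypes. Its values were 2.95 and 3.11 in MT8m and 3.04 and 3.08 in LM8m, against 3.55 and 3.65 in MT4m and 3.64 and 3.37 in LM4m. All 4 arrays at 8 months were below all 4 at 4 months, while MT and LM arrays overlapped at both ages. The difference of 8 minus 4 months was -0.51 ± 0.099 (SE, 1.42-fold lower, 95% interval -0.74 to -0.28), with a limma adjusted p of 0.459. It was -0.57 in MT and -0.45 in LM, and the averaged difference was -0.47 when the library labelled MT8m replicate 1 was left out. MT minus LM averaged 0.033 ± 0.099, with an interval of -0.19 to 0.26. In bulk tissue, fewer cells of a type and less RNA per cell cannot be told apart.

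The other 3 Dcx probe sets were dimmer and did not show the order by age. 1418141_at had a mean of 2.19, with 3.05 on MT4m replicate 2 and 1.84 to 2.46 elsewhere, while 1448974_at had values of 1.75 to 2.13 and 1418140_at of 1.37 to 1.85, near those of the Y-linked genes. Their age differences were -0.24 ± 0.22, 0.035 ± 0.11 and -0.054 ± 0.13 (SE), with adjusted p of 0.906, 0.975 and 0.969 by limma.

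Sox11, a transcription factor of committed neuroblasts, also lay lower at 8 months. The brightest probe set had 4.99 and 5.58 in MT8m and 6.01 and 5.42 in LM8m, against 6.24 and 5.56 in MT4m and 6.24 and 6.34 in LM4m. The lowest array was the library labelled MT8m replicate 1 and the highest was LM4m replicate 2, and the ages overlapped in MT but not in LM. The difference by age averaged -0.60 ± 0.20 (SE, interval -1.06 to -0.13, limma adjusted p = 0.678), and -0.45 ± 0.21 without that library. The third probe set of the gene, 1453125_at, separated the ages more cleanly. It had 5.21 and 5.28 in MT8m and 5.40 and 4.88 in LM8m, against 5.99 and 5.66 in MT4m and 6.04 and 6.07 in LM4m. Every 8-month array was below every 4-month array, and the difference was -0.75 ± 0.13 (SE, 1.68-fold lower), with an adjusted p of 0.393.

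All 6 Sox11 probe sets had a negative averaged age difference, and 5 of 6 had one without the library labelled MT8m replicate 1. The other 4 gave -0.59, -0.45, -0.34 and -0.20, the last (1431225_at, mean 3.30) with an interval of -0.93 to 0.53 and a value of 0.097 without that library. By age, the brightest probe set gave -0.62 in MT and -0.58 in LM, and 1436790_a_at gave -0.22 and -0.96. Without that library the age difference in MT was -0.33 for the brightest, -0.14 for 1436790_a_at and -0.55 for 1453125_at. It was above 0 for 1453002_at (0.085), 1429372_at (0.10) and 1431225_at (0.099), so the order by age in MT depended on that library for these probe sets. The genotype differences of the 6 probe sets did not share a sign. The brightest probe set gave MT minus LM of -0.41 ± 0.20 (SE) averaged over ages, and the next, 1436790_a_at, gave 0.11 ± 0.15. At 8 months these were -0.43 and 0.48, so the 2 brightest probe sets of Sox11 differed in direction there. Without the library labelled MT8m replicate 1, the brightest gave -0.14 ± 0.32 at 8 months and -0.26 ± 0.21 averaged over ages, and 1436790_a_at gave 0.56 and 0.15.

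**Figure D2:**
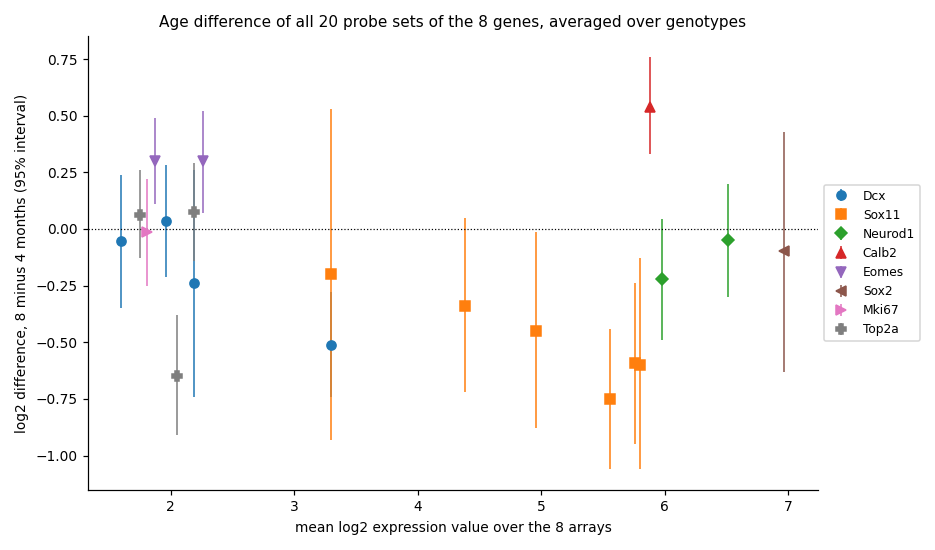
Difference of 8 minus 4 months, averaged over genotypes (y axis, log2, with its 95% interval), of all 20 probe sets of the 8 genes against their mean log2 value over the 8 arrays (x axis). All 6 Sox11 probe sets lie below 0 (5 of 6 without the library labelled MT8m replicate 1), as does the brightest of 4 Dcx probe sets (-0.51), and 1 of 3 Top2a probe sets lies at -0.65 with the other 2 near 0.

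Neurod1, a transcription factor of neuroblasts that mature granule cells also keep, was the most even of the bright genes. Its values were 6.56 and 6.43 in MT8m and 6.40 and 6.54 in LM8m, against 6.67 and 6.52 in MT4m and 6.29 and 6.64 in LM4m. The groups overlapped throughout, and the whole range over 8 arrays was 0.38. The age difference was -0.050 ± 0.11 (SE, interval -0.30 to 0.20) and MT minus LM was 0.078 ± 0.11 (interval -0.17 to 0.33). The second probe set, 1426412_at, gave -0.22 ± 0.12 by age and 0.12 ± 0.12 by genotype.

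Calb2, the calcium buffer calretinin, lay in the opposite order by age. It had 5.98 and 5.98 in MT8m and 6.35 and 6.31 in LM8m, against 5.28 and 5.56 in MT4m and 5.84 and 5.76 in LM4m. No 2 groups overlapped, with MT4m lowest, then LM4m, MT8m and LM8m. The age difference averaged 0.54 ± 0.094 (SE, 1.46-fold higher, interval 0.33 to 0.76), with a limma adjusted p of 0.393. It was 0.56 in MT and 0.53 in LM. MT minus LM averaged -0.37 ± 0.094 (1.29-fold lower, interval -0.58 to -0.15, adjusted p = 0.694), and was -0.35 at 8 months and -0.38 at 4 months. The 4-month value was -0.24 without MT4m replicate 1 and -0.52 without MT4m replicate 2. Without the library labelled MT8m replicate 1 these averages were 0.54 and -0.37. The gene has 1 probe set, so no other probe set bears on it.

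**Figure D3:**
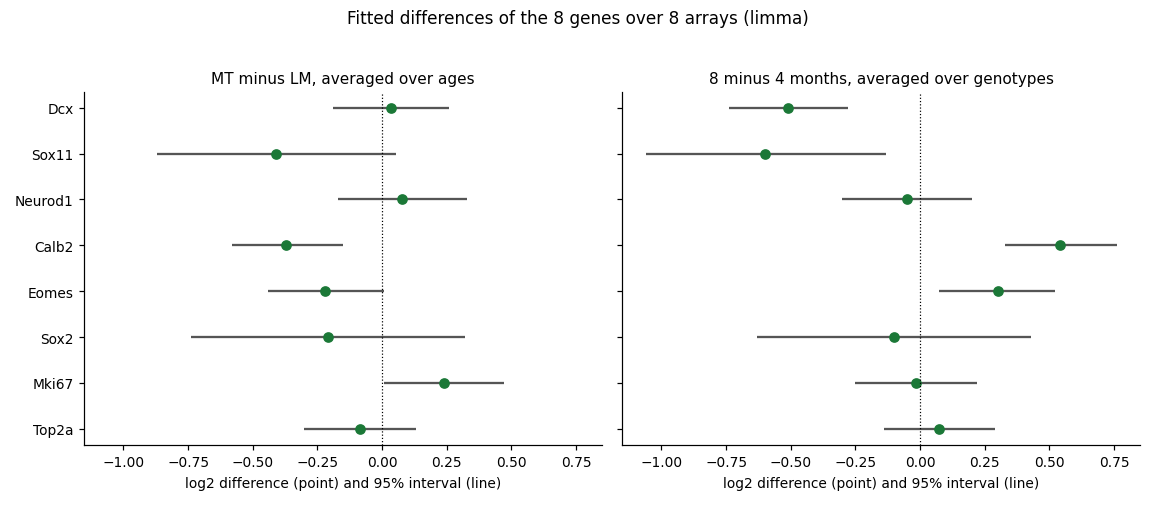
Fitted log2 differences (points) of the 8 genes with 95% intervals (lines), for MT minus LM averaged over ages (left) and 8 minus 4 months averaged over genotypes (right). The intervals of Dcx, Sox11, Calb2 and Eomes leave out 0 in the age comparison, and those of Calb2 and Mki67 in the genotype comparison, all before adjustment over the 45037 probe sets.

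Calb2 is also a gene of other cells, whose marker lists moved with it in part. The 6 genes of the thalamus list, all measured and none with a mean below 2, summed to 214 to 341 in MT8m and 257 to 358 in LM8m, against 90.4 to 122 in MT4m and 161 to 170 in LM4m (linear expression values). Zic1, a transcription factor expressed in thalamic and septal neurons, carried most of this order. It had 7.19 and 7.89 in MT8m and 7.20 and 8.10 in LM8m, against 4.48 and 5.72 in MT4m and 6.73 and 6.62 in LM4m, an age difference of 1.71 ± 0.30 (SE, adjusted p = 0.393). By age, 4 of the 6 genes had a difference above 0 and 2 below, with a median of 0.28, and by genotype 3 lay above 0 and 3 below, with a median of 0.01. Tcf7l2, the defining thalamic factor of that list, did not follow it, with 5.95 on LM8m replicate 1 and 2.90 to 3.94 on the other arrays. All 9 interneuron genes had an averaged genotype difference below 0, with a median of -0.35, and summed to 1130 to 1270 in MT8m, 1480 to 1560 in LM8m, 1200 to 1570 in MT4m and 1600 to 1620 in LM4m. By age, 3 of the 9 lay above 0 and 6 below, with a median of -0.16, against 0.54 for Calb2. The part of either list in the Calb2 values was not tested.

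**Figure D4:**
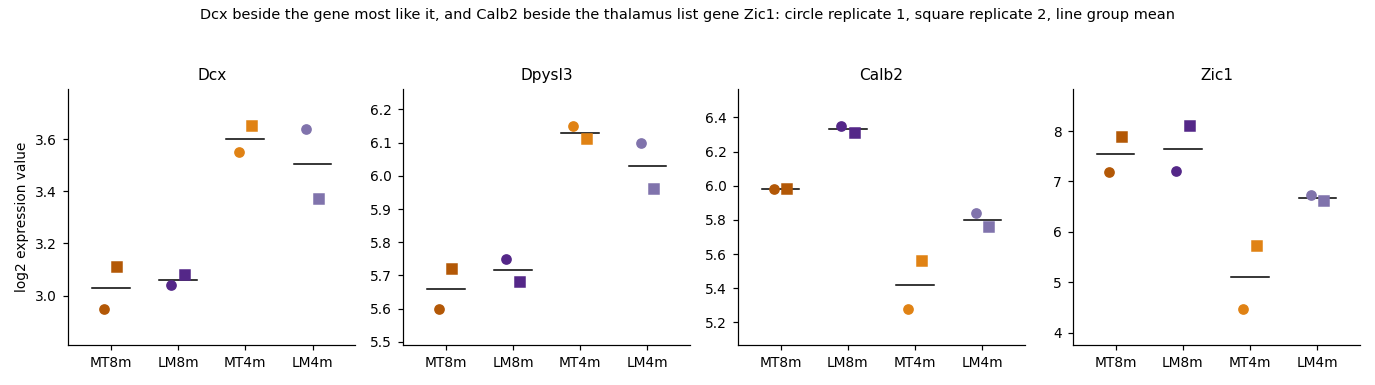
Log2 expression value (y axis) on each array by group (x axis) of Dcx and Dpysl3, the gene most like it over the 8 arrays (r = 0.974), and of Calb2 and Zic1 of the thalamus list. Circles are replicate 1, squares replicate 2 and lines the mean of 2 arrays. Dcx and Dpysl3 both lie lower on all 8-month arrays, and Calb2 and Zic1 both lie higher. Dpysl3 was picked for its r with Dcx on these arrays, and Zic1 for the size of its difference, so the shared orders follow from that choice. By age, 4 of the 6 thalamus genes lie above 0 and 2 below.

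Eomes, the T-box factor of intermediate progenitors, was dim and shared the order of Calb2. Its values were 2.39 and 2.34 in MT8m and 2.40 and 2.47 in LM8m, against 2.08 and 1.77 in MT4m and 2.32 and 2.25 in LM4m. All 8-month arrays were above all 4-month arrays, and MT arrays were below LM arrays at each age. The age difference was 0.30 ± 0.097 (SE, interval 0.072 to 0.52, limma adjusted p = 0.668), and MT minus LM was -0.22 ± 0.097 (interval -0.44 to 0.006, adjusted p = 0.853). By age the difference was 0.44 ± 0.14 in MT and 0.15 ± 0.14 in LM. By genotype it was -0.36 ± 0.14 at 4 months and -0.072 ± 0.14 at 8 months. The second probe set, 1426001_at, kept this order with 1.94 and 1.98 in MT8m and 2.16 and 2.01 in LM8m, against 1.64 and 1.65 in MT4m and 1.82 and 1.78 in LM4m. Its age difference was also 0.30, although 6 of its 8 values lay in the range of the Y-linked genes. Without the library labelled MT8m replicate 1 the age difference of the first probe set was 0.28.

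Sox2, the stem cell and astrocyte factor, was the brightest of the 8 and turned on 1 library. It had 6.23 and 7.46 in MT8m and 6.94 and 7.04 in LM8m, against 7.02 and 6.74 in MT4m and 7.10 and 7.21 in LM4m. The lowest and the highest of the 8 arrays were both labelled MT8m, 1.23 apart, and the other 6 arrays spanned 6.74 to 7.21. MT minus LM at 8 months was -0.14 ± 0.33 (SE, interval -0.89 to 0.61). It was 0.47 without the library labelled MT8m replicate 1 and -0.75 without MT8m replicate 2, so its direction depended on which array was used. The mean deviation of the 8 astrocyte markers split the MT8m arrays likewise, with -0.30 on the library labelled MT8m replicate 1 and 0.67 on MT8m replicate 2. At 4 months it did not follow Sox2, with 0.11 and 0.03 in MT4m against -0.14 and -0.11 in LM4m. In LM8m it was -0.13 on each array. The part of astrocytes in the Sox2 values was not tested.

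The proliferation genes gave no order by age that their probe sets shared. Mki67, the nuclear antigen Ki-67 of cycling cells, had 1.72 and 1.94 in MT8m and 1.71 and 1.82 in LM8m, against 2.06 and 1.99 in MT4m and 1.73 and 1.48 in LM4m. The MT4m arrays were the highest and stood above the LM4m arrays, and at 8 months the genotypes overlapped. MT minus LM was 0.42 ± 0.14 (SE, interval 0.089 to 0.74, limma adjusted p = 0.944) at 4 months and 0.061 ± 0.14 at 8 months. The 8-month value was 0.17 without the library labelled MT8m replicate 1 and -0.05 without MT8m replicate 2. The interaction, 8-month minus 4-month genotype difference, was -0.36 with an adjusted p of 1.0, and ran from -0.48 to -0.23 with 1 array left out. These values are at the floor of the array, and the 11 measured microglia markers, of 12 listed, were also highest on 3 of 4 MT arrays, with a mean deviation of -0.66 and 1.82 in MT8m, -0.83 and -0.50 in LM8m, 1.09 and 0.63 in MT4m and -0.73 and -0.82 in LM4m. Their part in the Mki67 values was not tested.

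Top2a, a DNA topoisomerase of dividing cells, gave different answers by probe set. The brightest, 1442454_at, had 2.09 and 2.29 in MT8m and 2.37 and 2.17 in LM8m, against 2.07 and 2.14 in MT4m and 2.25 and 2.16 in LM4m. The ages overlapped in both genotypes and the genotypes overlapped at 8 months, while both MT4m arrays lay below both LM4m arrays. The age difference was 0.073 ± 0.095 (SE, interval -0.14 to 0.29). The second, 1454694_a_at, had 1.56 and 1.89 in MT8m and 1.60 and 1.86 in LM8m, against 2.13 and 2.24 in MT4m and 2.44 and 2.67 in LM4m. All 8-month arrays were below all 4-month arrays, with a difference of -0.65 ± 0.12 (SE, 1.57-fold lower, adjusted p = 0.393), and the 8-month values lay in the range of the Y-linked genes. The third, 1427724_at, was at 1.63 to 1.84 throughout, with an age difference of 0.062 ± 0.086.

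Set side by side, the immature neuron genes did not move as one. Averaged over genotypes, their median difference of 8 minus 4 months was -0.28, with Dcx and Sox11 below 0, Calb2 above and Neurod1 near 0. That of the proliferation genes was 0.03, against -0.004 over all 18193 genes. It rests on 2 dim genes and on the probe set chosen. Mki67 gave -0.014, and Top2a gave 0.073 by its brightest probe set but -0.65 by its second. By genotype the medians were -0.17 and 0.08, against -0.012 over all genes. On each array, the mean deviation of the 4 immature neuron genes from their 8-array mean ran between -0.25 (the library labelled MT8m replicate 1) and 0.16 (LM4m replicate 2), and that of Mki67 and Top2a between -0.18 (LM4m replicate 2) and 0.12 (MT8m replicate 2).

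The share of genes in such orders was read against the whole array. Among the 8 genes, 2 (Calb2 and Eomes) were higher at 8 months at an unadjusted p under 0.05, where 2.49% of all genes were, and 2 (Dcx and Sox11) were lower, where 3.98% were. For MT minus LM averaged over ages, 1 (Mki67) was higher, where 2.08% of all genes were, and 1 (Calb2) was lower, where 4.64% were. Arrays of the ages did not overlap within either genotype for 1 gene lower at 8 months (Dcx, 4.19% of all genes) and for 2 genes higher (Calb2 and Eomes, 2.94%). Arrays of the genotypes did not overlap at either age for 2 genes lower in MT (Calb2 and Eomes, 4.31%) and for 0 genes higher (2.67%). With 8 genes, each of these counts is 2 or fewer. The genes were chosen with earlier results of these data known, so these shares cannot test for an excess among them.

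Over the 8 arrays, 28 pairs of the 8 genes were compared, and none passed adjustment over the pairs by the exact permutation test. The pair with the highest correlation was Calb2 and Eomes, with r = 0.776 (exact permutation p = 0.0193, adjusted 0.201) and rho = 0.929 (p = 0.00223, adjusted 0.0625, n = 8). Without the 2 arrays farthest from the median of Calb2 r was 0.85, but within groups, as deviations from the group means, it was -0.864, so the 2 genes shared the order of the groups and not the differences between arrays of a group. Dcx and Calb2 had r = -0.765 (exact permutation p = 0.0287, adjusted 0.201) and rho = -0.738 (adjusted 0.257), and 0.503 within groups. Dcx and Sox11 had r = 0.586 (exact permutation p = 0.124) and rho = 0.452, and -0.066 within groups. Mki67 and Top2a had r = -0.208 and rho = -0.381 (exact permutation p = 0.614 and 0.36).

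The genes most like each member were sought among 9096 genes above the median level, by r over the 8 arrays, as a description. Their orders thus match by selection. Dpysl3, a collapsin response mediator of growing axons, was first for Dcx (r = 0.974). It had 5.60 and 5.72 in MT8m and 5.75 and 5.68 in LM8m, against 6.15 and 6.11 in MT4m and 6.10 and 5.96 in LM4m, so every 8-month array lay below every 4-month array. Popdc3 (0.96) and Plppr1 (0.946) came next. For Sox11 they were Sesn3 (0.97), Ints4 (0.959) and Mfap3 (0.946), and for Calb2 they were Cacng5 (0.969), Rgs3 (0.927) and Krt42 (0.92). For Neurod1 they were Sdhaf2, Eif2b1 and Itpa (0.968 to 0.978), for Eomes Oard1, Rhbdd3 and Sil1 (0.937 to 0.953), and for Sox2 Cat, Tgoln1 and Adh5 (0.939 to 0.956). For Mki67 they were Ppfia1 (0.908), Oprl1 (0.897) and Ly86 (0.87), the last a microglial gene. For Top2a they were Zfhx3, Slc38a1 and 2810410L24Rik (0.938 to 0.944).

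Other genes of neuroblasts and immature neurons, beyond the 8, were measured for 27 of 28 listed. None passed the test by age or by genotype with limma. For 8 minus 4 months, 5 were lower at an unadjusted p under 0.05 (Sox4, Neurog2, Dpysl3, Elavl4 and Tbr1), where 3.98% of all genes were. Only 1 was higher (Dlx1), where 2.49% of all genes were. Neurog2 had a mean below 2, and the median difference over the 27 was -0.10. Tbr1, a T-box factor of glutamatergic neurons, had 4.29 and 4.42 in MT8m and 4.43 and 4.40 in LM8m, against 5.13 and 4.59 in MT4m and 5.15 and 4.74 in LM4m. Elavl4, the neuronal RNA-binding protein HuD, had 6.43 and 6.51 in MT8m and 6.79 and 6.66 in LM8m, against 7.27 and 6.82 in MT4m and 7.44 and 6.93 in LM4m. For both genes all 8-month arrays lay below all 4-month arrays, with differences of -0.52 ± 0.14 and -0.51 ± 0.14 (SE, limma adjusted p = 0.629 each). Arrays at 8 months lay below those at 4 months within each genotype for 4.19% of all genes. Tbr1 and Elavl4 are also expressed by mature cortical neurons, and the 5 measured neocortex markers, of 6 listed, summed to 335 to 409 in MT8m and 377 to 431 in LM8m, against 374 to 436 in MT4m and 438 to 530 in LM4m. The part of neocortical tissue in these values was not tested.

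By genotype, 3 genes of that list were lower in MT at an unadjusted p under 0.05 (Igfbpl1, Nnat and Marcksl1), where 4.64% of all genes were. Only 1 was higher (Neurog2), where 2.08% of all genes were, and the median difference over the list was -0.10. Marcksl1, an actin-binding protein of growing neurons, differed by -0.53 ± 0.21, Nnat by -0.37 ± 0.11 and Cd24a by -0.37 ± 0.20 (SE), with limma adjusted p of 0.853, 0.775 and 0.855. The 12 measured choroid plexus genes, of 14 listed, moved far more by genotype. They summed to 1700 to 1740 in MT8m against 7260 to 8090 in LM8m, and to 1720 to 2090 in MT4m against 5840 to 6620 in LM4m, and 10 of the 12 passed the test lower in MT averaged over ages. No MT array overlapped an LM array in these sums, so the choroid plexus level and genotype cannot be told apart here.

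Of 15 stem cell and radial glia genes 14 were measured, and 0 had an unadjusted p under 0.05 by age or genotype in the averaged comparisons. Vim, the filament protein of radial glia and reactive astrocytes, ranged from 5.80 on the library labelled MT8m replicate 1 to 9.28 on MT8m replicate 2, the same pair of arrays between which Sox2 was split. Of 40 cell cycle genes 39 were measured, and 17 of these had a mean below 2. At an unadjusted p under 0.05, Mcm5 was lower (3.98% of all genes) and Cdc20 higher (2.49%) at 8 months. Mcm2 and Mcm7 were lower (4.64%) and Ccna2 higher (2.08%) in MT. Ccna2, the cyclin of S phase, had 2.54 and 2.03 in MT8m against 2.16 and 2.16 in LM8m, and 2.74 and 2.69 in MT4m against 2.26 and 1.96 in LM4m. It was highest in MT4m, as was Mki67, but the list did not share this. For MT minus LM at 4 months, 16 of the 39 genes lay above 0 and 23 below, with a median of -0.01. At an unadjusted p under 0.05, 1 was higher (Ccna2) and 3 were lower (Mcm2, Mcm7 and Prc1), where 5.74% of all genes differed in either direction. The 3 Top2a probe sets gave -0.097, -0.37 and 0.095 there. Mcm2, a subunit of the replication helicase, had 3.01 and 2.90 in MT8m against 3.21 and 3.40 in LM8m, and 2.89 and 3.04 in MT4m against 3.40 and 3.42 in LM4m. Its difference was -0.40 ± 0.09 (SE, limma adjusted p = 0.553), and every MT array lay below every LM array. MT arrays lay below LM arrays within each age for 4.31% of all genes. The median over the 39 genes was -0.06 by age and -0.00 by genotype.

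**Figure D5:**
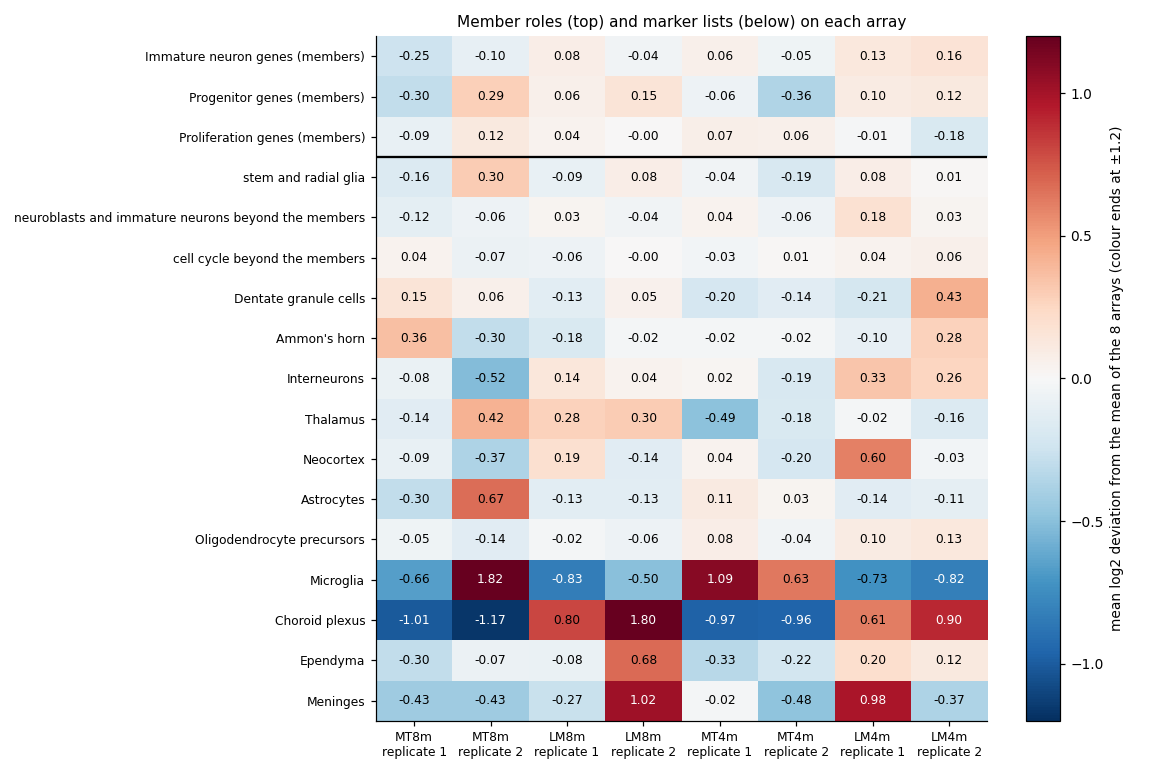
Mean log2 deviation from the 8-array mean (colour, with the value printed) for each of the arrays (columns) and the 3 roles of the 8 genes (top) and for the related and cell type lists (below). The roles of the 8 genes stay between -0.36 and 0.29. The microglia list reaches 1.82 on MT8m replicate 2, and the choroid plexus list runs from -1.17 on that array to 1.80 on LM8m replicate 2.

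Oligodendrocyte precursors also divide in the adult hippocampus. Of their 9 listed markers 8 were measured, with 0 past the test. At 8 months 2 were lower at an unadjusted p under 0.05 (Gpr17 and Olig2), where 3.98% of all genes were. By age 3 of the 8 lay above 0 and 5 below, with a median of -0.07. Gpr17, a receptor of differentiating precursors, had 5.54 and 5.36 in MT8m and 5.08 and 4.91 in LM8m, against 6.40 and 5.72 in MT4m and 5.82 and 6.19 in LM4m. All 8-month arrays lay below all 4-month arrays, with a difference of -0.81 ± 0.16 (SE, limma adjusted p = 0.459). Within each genotype, 4.19% of all genes had 8-month arrays below 4-month arrays. Pdgfra, the receptor that defines the precursors, differed by -0.11 ± 0.11.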

How the data were processed

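Hippocampal RNA of 8 samples (4 groups of 2) was hybridised to Affymetrix mouse arrays with 1 colour. The authors used RMA in the R package affy and deposited log2 expression values of 45101 probe sets (0.979 to 12.827); the array number limits the precision. The RMA version and background settings are not given in the sources used here. No change was made to the deposited values. After 64 control probe sets were left out, 45037 were tested. Annotation gave 1 symbol for 34945 of them, updated by Entrez identifier in a RefSeq table for 34741, several for 932 and none for 9160.

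Group means were fitted over all 8 arrays with limma 3.58.1 in R 4.3.3 (lmFit and eBayes, 4 residual degrees of freedom, two-sided, Benjamini-Hochberg over 45037 probe sets). Intervals are 95% intervals of that fit. The fit was tested on simulated data. Members and lists were chosen with earlier results of these data known. The rule for named genes was all 8 members, up to 3 genes of each list with the largest averaged genotype and age differences, the 3 genes most like each member, and Thy1. Related and cell type lists covered stem and radial glia, neuroblasts, cell cycle, dentate granule cells, Ammon's horn, interneurons, thalamus, neocortex, astrocytes, oligodendrocyte precursors, microglia, choroid plexus, ependyma, meninges and Y-linked genes. Promoters came from RefSeq. Alternatives were the second probe set, cyclic loess, only 1 probe set of a gene, leaving out dim probe sets, each array left out, a robust prior with a trend, a choroid plexus covariate, 2 groups alone, an additive model, and a replicate block. Python 3.11.15 and scipy 1.17.1 gave the exact permutation tests.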

Additional observations from a re-analysis of the deposited data

How the results depend on the processing

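The count of the 8 genes past the test stayed 0 in each comparison under all alternatives that could be fitted, leaving out each array included (range 0 to 0). Over 56 differences (8 genes in 7 comparisons) and 910 alternative values, the sign was kept throughout for 29 of the 56. The smallest limma adjusted p was 0.195 (Calb2 by age, 0.393 in the main fit). It came from the replicate block with the MT numbers crossed, an alternative chosen after seeing the data. The age differences ranged from -0.58 to -0.24 for Dcx (-0.24 with its second probe set), from -0.77 to -0.43 for Sox11, from 0.47 to 0.61 for Calb2 and from 0.22 to 0.37 for Eomes. The genotype difference of Sox11 ran from -1.65 with the choroid plexus list as a covariate to 0.11 with its second probe set, and that of Calb2 from -0.47 to -0.30. With that covariate the genotype difference of Neurod1 was 0.57 ± 0.43 (SE). The choroid plexus level did not overlap between MT and LM arrays, so genotype differences fitted with this covariate cannot be separated from that level. The title numbers lie within 1 genotype. Between arrays that share a number, the correlation of deviations from the group means was 0.2413 in LM and -0.1747 in MT. With 2 arrays a group, these values cannot decide whether the numbers pair the arrays. With the number as a replicate block, 0 members passed, and the age difference of Dcx was -0.51 ± 0.10 (SE). With the MT numbers crossed, an alternative chosen after seeing the data, 3 probe sets passed by age averaged over genotypes, 2 in MT and 3 in LM, and 0 of the 8 genes. With 2 arrays a group, values near 2 cannot be told from probe sets without a transcript.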

Other observations

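Dentate granule cell, ependymal and meningeal lists were also read beside the 8 genes. The 8 granule cell markers summed to 935 to 962 in MT8m, 776 to 983 in LM8m, 841 to 898 in MT4m and 763 to 1140 in LM4m, overlapping between all groups but MT8m and MT4m, and 0 passed the limma test in any comparison. Dsp, the desmosomal gene of mature granule cells, had 7.15 and 6.68 in MT8m and 6.45 and 6.56 in LM8m, against 5.92 and 6.13 in MT4m and 6.26 and 6.77 in LM4m, an age difference of 0.44 ± 0.15 (SE, limma adjusted p = 0.684). All 10 ependymal genes had a genotype difference below 0 averaged over ages, with a median of -0.42 and 0 past the test. All 8 meningeal genes did too, with a median of -0.50, and their mean deviation was highest on LM4m replicate 1 (0.98) and LM8m replicate 2 (1.02). The 6 Ammon's horn genes had a median of 0.03 by genotype and -0.04 by age. Gapdh control probe sets differed most between the 3′ and 5′ ends on LM4m replicate 1 (10.671 and 8.485). With that array and the library labelled MT8m replicate 1 both left out, the age differences were -0.40 for Dcx, -0.48 for Sox11, 0.56 for Calb2 and 0.30 for Eomes.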
